A study of Mus musculus with 2 samples.

Results

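A set of 10 genes of the secretory lineages of the gut was examined for H3K9me3, a histone mark of silenced chromatin, in mouse intestinal stem cells. The set holds 6 fate regulators, Atoh1, Gfi1, Spdef, Neurog3, Neurod1 and Pou2f3, and 4 lineage products, Lyz1, Muc2, Chga and Dclk1, out of 21770 protein-coding genes. Marked genes are those with at least 1 deposited peak overlapping their GRCm38 span or the 5 kb on either side. This rule assigned 15 of the 40119 peaks to the 10 genes. The peaks were called in 1 H3K9me3 ChIP library against 1 control library that the labels call input in the title and IgG in the antibody field. Both were made from GFP-high, CD24-low cells sorted from 12 pooled Lgr5-EGFP-IRES-creERT2;setdb1fl/fl mice of the C57BL/6 strain, 8 weeks after birth. In such mice the Lgr5 locus drives GFP and the inducible Cre in crypt stem cells, and the Setdb1 alleles are floxed. The labels do not state whether Cre was induced, so whether Setdb1 was intact in these cells is not given. There was no replicate, and no RNA was measured, so the labelled cell type could not be checked against expressed markers and no difference between conditions was tested.

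H3K9me3 is deposited by methyltransferases that include SETDB1 and the SUV39H enzymes, and it is best known at repeats and in constitutive heterochromatin. In the intestinal crypt, Lgr5-positive stem cells give rise to absorptive enterocytes and to secretory cells. Release from Notch signalling allows the bHLH factor Atoh1 to be expressed, which commits progenitors to goblet, Paneth and enteroendocrine fates. Goblet cells secrete mucus, Paneth cells antimicrobial proteins and enteroendocrine cells hormones, while tuft cells are chemosensory and depend on Pou2f3. The design therefore allows the question whether, in stem cells that have not taken these fates, the mark lies at the regulators of the fates or at the products of the mature cells.

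All 6 fate regulators and 3 of the 4 products had a peak, where 55.6% of all protein-coding genes had one under the same rule. The tallest peak of a regulator held between 9.43 normalized tags at Neurog3 and 78.6 at Gfi1, with a median of 29.3 over the 6 genes. The tallest peak of a marked product held 9.95 at Dclk1, 12.0 at Muc2 and 30.9 at Chga, and Lyz1 had none. A normalized tag count gives the ChIP tags of a peak on a common library scale, and 1 tag was worth 1.05. The median over all peaks was 17.3, beside 15.4 over the 10 regulator peaks and 9.95 over the 5 product peaks. For the tallest peak of each marked protein-coding gene the median was 21.0. A peak at or above the list median of 17.3 was held by 4 of 6 regulators (Atoh1, Gfi1, Spdef and Neurod1) and 1 of 4 products (Chga). The share of protein-coding genes with such a peak was 35.8%. Neurog3, Pou2f3, Muc2 and Dclk1 had only peaks below the list median. When a fold over control of at least 8 was required, 4 regulators and 3 products were marked, against 47.3% of protein-coding genes, and Atoh1 and Gfi1 were not among them. With peaks at the lowest control value left out, 5 regulators and 1 product were marked, against 41.2%. With 6 and 4 genes and 1 library, the difference between regulators and products is a description.

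**Figure D1:**
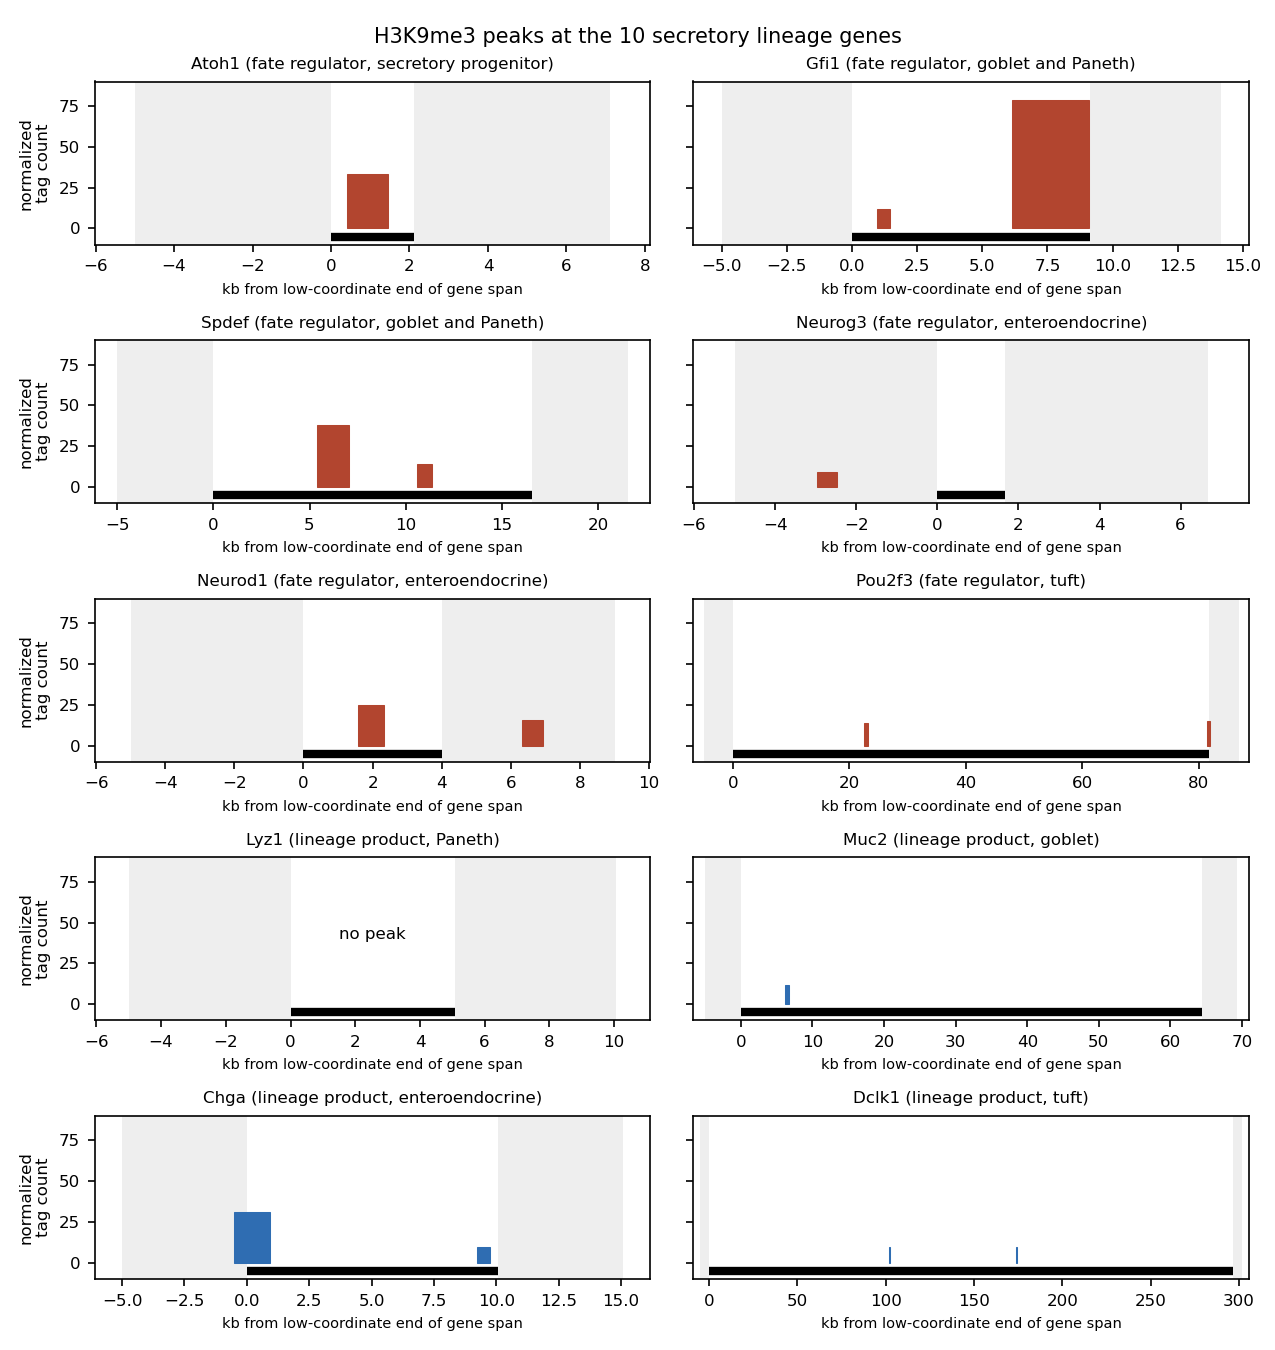
H3K9me3 peaks at the 10 genes: each panel shows the distance from the low-coordinate end of the gene span in kb (x axis, its own scale per gene) and the normalized tag count of each peak (bar height), with the bar as wide as the peak plus a thin outline. The black line is the gene span, grey areas are the 5 kb on either side, red marks fate regulators and blue lineage products. The bar of Gfi1 reaches 78.6, Lyz1 has no bar, and the bars of Dclk1 stay at 9.43 and 9.95.

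Atoh1, on chromosome 6 (64729125 to 64731245, plus strand), is the earliest of these regulators and was marked inside the gene. Its peak (64729543 to 64730572) held 32 ChIP tags (exact Poisson 95% interval 21.9 to 45.2) beside 3.5 control tags (0.845 to 9.51), and the authors' fold over control was 6.26. It began 418 bp after the start of the gene and ended 1447 bp after it, so it covered 1029 bp of a span of 2121 bp. The normalized tag count of 33.5 stood at percentile 80.7 of the whole list. Among marked protein-coding genes of between 1/2 and 2 times its length, 72.5% had a lower tallest peak. No other peak lay within 74.9 kb of the gene.

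Gfi1, a zinc finger repressor that acts after Atoh1 and favours goblet and Paneth over enteroendocrine fate in mice, carried the tallest and widest peak of the 10 genes. The gene lies on chromosome 5 (107716655 to 107725805, minus strand). The peak (107722804 to 107725745) was 2941 bp wide and held 75 ChIP tags (59.0 to 94.0) beside 8 control tags (3.45 to 15.8), a fold of 6.41. It ran from 60 to 3001 bp after the outer start of the gene and contained a second annotated start, at 107724343. At 78.6 normalized tags it was the only peak of the set in the top 10% of the list, which began at 50.8, and 6.61% of protein-coding genes had such a peak. A second peak of 500 bp near the far end of the gene (107717605 to 107718105) held 11.5 ChIP tags (5.84 to 20.3) beside 1 control tag.

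The tall peak of Gfi1 was the widest of the 15 but not the densest. It held 26.7 normalized tags per kb, below the inner peak of Neurod1 with 32.9, the Atoh1 peak with 32.6 and the Pou2f3 peak at the end of the span with 30.4, and above the other 11 peaks. Over all 15 peaks the density ranged from 18.7 per kb at Spdef to 32.9 per kb. Peak width ranged more widely, from 500 to 2941 bp.

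Spdef, an ETS factor of goblet and Paneth maturation, lies on chromosome 17 (27714446 to 27731003, minus strand) and had 2 peaks, both inside the gene. The taller one (27719824 to 27721482) held 36.5 ChIP tags (25.6 to 50.4) beside 4.5 control tags (1.35 to 11.0), with a fold of 5.55, the lowest of the 15. It lay 7469 to 9127 bp after the annotated start used here, 27728951. This was the outermost start available for Spdef, and it lies inside the span rather than at its high-coordinate end. The other (27725045 to 27725800) held 13.5 ChIP tags (7.29 to 22.9) beside 0.5 control tag. Spdef also had the nearest peak that the 5 kb limit left out, 6027 bp from the gene and inside its neighbour Pacsin1, with 9.43 normalized tags. Within 500 kb of Spdef there were 66.9 peaks per Mb, against 14.7 per Mb over all chromosomes, so its 2 peaks lay in a stretch rich in peaks.

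Neurog3 and Neurod1, bHLH factors that specify enteroendocrine cells one after the other, differed in their marking. Neurog3, on chromosome 10 (62133090 to 62134763, plus strand), had no peak on the gene itself. Its single peak (62130112 to 62130612) lay 2478 bp before the span and held 9 ChIP tags (4.12 to 17.1) beside 0.5 control tag, the lowest count in the whole list, shared by 3544 peaks. Neurod1, on chromosome 2 (79452637 to 79456636, minus strand), had a peak inside the gene (79454213 to 79454976) with 24 ChIP tags (15.4 to 35.7) beside 2.5 control tags (0.416 to 8.01). This peak lay 1660 to 2423 bp after the start. A second peak of Neurod1 (79458947 to 79459580) lay 2311 bp outside the span, before the start, with 15 ChIP tags (8.40 to 24.7) beside 1 control tag. The outlying peaks of the pair sat at a similar distance before the start, at centres of -2730 bp for Neurog3 and -2630 bp for Neurod1.

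Pou2f3, a POU factor required for tuft cells, spans 81829 bp of chromosome 9 (43123927 to 43205755) and had 2 short peaks. One (43205365 to 43205865) crossed the high-coordinate end of the span, with 14.5 ChIP tags (8.02 to 24.1) beside 1.5 control tags (0.108 to 6.42). The other (43146452 to 43147113) lay inside, with 13.5 ChIP tags (7.29 to 22.9) beside 0.5 control tag. The intervals of the Pou2f3 peaks overlapped each other and those of the weaker Gfi1, Spdef and Neurod1 peaks, and differences between these counts were not tested.

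Chga, the granin of enteroendocrine secretory granules, was the product with the most signal and, of the 9 members with an annotated start in the promoter table, the only one whose outer promoter window, 250 bp before to 50 bp after the start, was touched by a peak. Of all protein-coding starts, 16.3% were touched in this way. The gene lies on chromosome 12 (102554941 to 102565027, plus strand). The peak (102554411 to 102555875) ran from -530 to 934 bp around the start and held 29.5 ChIP tags (19.8 to 42.2) beside 2 control tags (0.242 to 7.22), with a fold of 10.09. Its interval overlapped those of the peaks of Atoh1, Spdef and Neurod1. A second peak near the far end (102564176 to 102564676) held 9.5 ChIP tags (4.45 to 17.7) beside 0.5 control tag.

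The other products carried little or nothing. Muc2, the gel-forming mucin of goblet cells, spans 64352 bp of chromosome 7 (141690340 to 141754691, plus strand) and had 1 peak of 500 bp (141696543 to 141697043) with 11.5 ChIP tags (5.84 to 20.3) beside 0.5 control tag. Dclk1, a kinase that marks tuft cells, spans 296766 bp of chromosome 3 (55242303 to 55539068, plus strand). Its peaks (55344155 to 55344655 and 55415893 to 55416393) held 9 and 9.5 ChIP tags, each beside 0.5 control tag, and began 101791 and 173529 bp after the outer start. Lyz1, the lysozyme of Paneth cells, on chromosome 10 (117287795 to 117292868, minus strand), had no peak, and the nearest in the list lay 78.9 kb away, closest to Yeats4. Lyz1 has a near-identical neighbour, Lyz2, which had no peak either, and reads that map to both copies may have been lost. How such reads were handled is not given in the sources used here. A gene without a peak may still carry the mark below the 9 tags of the lowest peak.

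Gene length was set beside the signal of each gene, and its part in that signal was not tested. Of all protein-coding genes, 28.8% below 3 kb and 82.9% from 100 kb on had a peak. Dclk1 was the longest member, and 87.5% of protein-coding genes of between 1/2 and 2 times its length had a peak, yet 2.43% of those marked genes had a tallest peak lower than that of Dclk1. Neurog3 was the shortest, and 31.9% of genes of like length were marked. For Atoh1 that share was 47.7%, for Neurod1 51.9%, for Gfi1 54.5% and for Spdef 55.8%, while for Muc2 it was 64.0% and for Pou2f3 67.2%. For Chga it was 55.0%, and for Lyz1, which had no peak, 52.7%. Peaks covered 18.0% of Gfi1 with its flanks, 9.97% of Neurod1, 9.78% of Chga, 9.09% of Spdef and 8.49% of Atoh1. They covered 4.28% of Neurog3, 1.26% of Pou2f3, 0.672% of Muc2 and 0.326% of Dclk1.

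The control did not order the genes as the tag counts did. The median fold was 7.24 at the 10 regulator peaks and 13.0 at the 5 product peaks, although the regulator peaks held more tags. Over the whole list the median fold was 12.32. The tallest peaks of Gfi1, Atoh1, Spdef and Neurod1 were below it, with folds of 6.41, 6.26, 5.55 and 6.57. Of the product peaks 4 stood at the lowest control value of 0.5 tag, and of the regulator peaks 3 did, as did 43.0% of all peaks, so those folds depend on that floor. The sums that follow are not scaled for library size, and the control library had 0.684 of the ChIP library's tags. ChIP tags summed to 244.5 at the regulators and 69 at the products, beside 23.5 and 4 control tags. Narrow peaks followed the same split, with 3 of 10 regulator peaks and 4 of 5 product peaks at exactly 500 bp, the width of 31.9% of the whole list.

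Positions relative to the start could be given for the 5 regulators in the promoter table. None of the 5 had a peak on the outer promoter window, where 16.3% of protein-coding starts had one, although the Gfi1 peak contained the inner start of that gene. Of the 5, 3 (Atoh1, Gfi1 and Neurod1) had a peak centre within the first 3 kb after the start, where 21.8% of protein-coding genes had one. In the 3 kb before the start, 2 of the 5 (Neurog3 and Neurod1) had a peak centre, against 11.0% of protein-coding genes. Pou2f3 was not in that table, so which end of its span is the start, and whether the peak across the high-coordinate end lies on it, was not analysed here. The promoters of 5 members are shown to set the promoter that a peak covered beside those it skirted and one far from any peak. Each is the 250 bases before the start, from RefSeq on GRCm38.p6, written 5′ to 3′ on the strand of the gene with CG dinucleotides, which read the same on both strands, in capitals. The peak covers all of the Chga sequence (chr12:102554691-102554940), begins 61 bp from the Gfi1 sequence (chr5:107725806-107726055), 419 bp from that of Atoh1 (chr6:64728875-64729124) and 1661 bp from that of Neurod1 (chr2:79456637-79456886), and the nearest peak to the Lyz1 sequence (chr10:117292869-117293118) is 84008 bp away.
Gfi1 promoter: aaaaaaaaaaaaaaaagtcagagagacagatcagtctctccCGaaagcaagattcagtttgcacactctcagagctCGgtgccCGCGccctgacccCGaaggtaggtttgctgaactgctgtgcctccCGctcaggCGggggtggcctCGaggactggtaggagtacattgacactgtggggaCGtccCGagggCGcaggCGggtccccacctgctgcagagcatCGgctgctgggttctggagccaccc
Atoh1 promoter: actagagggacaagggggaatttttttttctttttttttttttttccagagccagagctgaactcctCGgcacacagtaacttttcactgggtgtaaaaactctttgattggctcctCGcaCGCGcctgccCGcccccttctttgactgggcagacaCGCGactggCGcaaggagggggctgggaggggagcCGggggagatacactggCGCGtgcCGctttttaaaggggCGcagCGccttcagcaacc
Neurod1 promoter: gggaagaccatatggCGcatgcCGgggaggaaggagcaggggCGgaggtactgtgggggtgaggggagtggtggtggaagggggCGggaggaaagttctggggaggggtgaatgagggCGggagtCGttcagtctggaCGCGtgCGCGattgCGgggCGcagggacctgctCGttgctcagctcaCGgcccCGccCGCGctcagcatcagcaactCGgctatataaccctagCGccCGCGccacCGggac
Chga promoter: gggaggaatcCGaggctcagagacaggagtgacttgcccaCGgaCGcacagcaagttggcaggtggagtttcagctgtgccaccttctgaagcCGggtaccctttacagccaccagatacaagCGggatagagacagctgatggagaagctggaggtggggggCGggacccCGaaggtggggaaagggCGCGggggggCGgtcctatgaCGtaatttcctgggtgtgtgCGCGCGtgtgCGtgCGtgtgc
Lyz1 promoter: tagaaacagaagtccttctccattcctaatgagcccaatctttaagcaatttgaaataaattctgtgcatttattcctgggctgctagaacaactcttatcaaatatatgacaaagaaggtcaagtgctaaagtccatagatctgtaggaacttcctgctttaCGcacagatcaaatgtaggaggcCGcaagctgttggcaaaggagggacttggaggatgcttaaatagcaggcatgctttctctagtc

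The printed stretches differ in CpG content. The Neurod1 stretch held 22 CG dinucleotides and 67.6% G and C, that of Chga 16 and 62.4%, that of Atoh1 14 and 55.6% and that of Gfi1 13 and 59.2%, whereas that of Lyz1 held 2 and 41.2%. The same stretch held 18 at Neurog3, 7 at Spdef and 4 each at Muc2 and Dclk1. Over the full 300 bp window, 22.2% of protein-coding promoters held at least as many CG dinucleotides as Neurod1, 38.2% at least as many as Neurog3 and 87.6% at least as many as Lyz1. In the lowest quartile of promoters, with 0 to 4 CG dinucleotides, 26.2% of genes had a peak (exact 95% interval 24.9 to 27.6%), against 57.1%, 70.2% and 67.3% in the quartiles above it. Lyz1 was the only member in the lowest quartile. The part of CpG content in the difference between regulators and products was not tested.

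A wider list of 25 further regulators and 4 lists of further products gave counts in the same order. These lists were chosen with earlier results of these data known. Of the other regulators, 19 of 25 (76.0%) were marked and 16 had a peak at or above the list median. Of the other products, 16 of 51 (31.4%) were marked and 12 reached the median, beside 55.6% and 35.8% of protein-coding genes. The median tallest peak of the marked genes was closer, at 25.7 normalized tags for the other regulators and 21.8 for the other products, beside 21.0 for all marked protein-coding genes. Together with the members, 25 of 31 regulators and 19 of 55 products had a peak.

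Foxa1, Foxa2 and St18 had the largest summed signal among the other regulators. Foxa1, a forkhead factor of enteroendocrine and goblet differentiation, had 4 peaks on chromosome 12. The tallest (57548405 to 57550592) had 73.3 normalized tags beside 2 control tags and a centre at -3390 bp from the start used. That start lies inside the span of Foxa1 (57540628 to 57548029), whereas the tallest peak lay outside the span. Foxa2, its paralogue, had 5 peaks on chromosome 2, the tallest (148044805 to 148046481) with 51.9 normalized tags beside 5 control tags and a centre 1330 bp after the start. St18, a zinc finger gene of 373710 bp on chromosome 1, had 5 peaks of 9.95 to 41.9 normalized tags. Rfx3, Rfx6, Myt1, Xbp1, Creb3l4 and Gfi1b had none, so a regulator of these fates was not always marked.

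The 4 product lists hold 10 to 16 genes each, and differences between them were not tested. Of the Paneth products 1 of 11 was marked, Pla2g2a, a secreted phospholipase, with a single peak of 11.5 normalized tags. That count was 3 with flanks of 10 kb, 7 with flanks of 20 kb and 0 at a fold of at least 8. The shares of protein-coding genes under these settings were 62.8%, 72.9% and 47.3%. The 3 alpha-defensins in that list belong to a family of near-identical copies, where reads may not have been placed. Of the enteroendocrine products 4 of 16 were marked, and the hormone genes Gcg, Cck, Gip, Sst, Pyy, Nts and Ghrl had no peak, while Sct, the secretin gene, had 2 peaks of 23.0 and 11.5 normalized tags. Reg4 had 2 peaks of 14.1 and 9.95, and Pcsk1n, which encodes a prohormone convertase inhibitor, had 1 of 20.4. The taller peak of Reg4 and the lower peak of Sct lay outside the gene span, in the 5 kb beside it.

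Goblet products were marked in 4 of 10 genes and tuft products in 7 of 14. With flanks of 20 kb the counts were 5 of 10 goblet, 8 of 14 tuft and 7 of 16 enteroendocrine products, against 72.9% of protein-coding genes. Galnt12, an enzyme that starts mucin-type glycosylation, had 4 peaks of up to 30.4 normalized tags. Fcgbp, a protein of mucus, had 4 of up to 25.7 and Fut2, a fucosyltransferase, 1 of 17.3, while Tff3, Clca1, Agr2 and Zg16 had none. In the tuft list, Plcb2, a phospholipase of taste signalling, had 3 peaks of 47.7, 33.0 and 22.0 normalized tags. Avil, an actin-binding protein, had 2 of 32.5 and 13.6, and Gng13, a G-protein gamma subunit, had 2 of 21.5 and 15.2. Both peaks of Gng13 and the tallest peak of Plcb2 lay outside the gene span, in the 5 kb beside it. The share of protein-coding genes of like length that had a peak averaged 43.8% over the Paneth list, 49.4% over the enteroendocrine list, 54.8% over the goblet list, 55.9% over the tuft list and 59.8% over the other regulators.

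**Figure D2:**
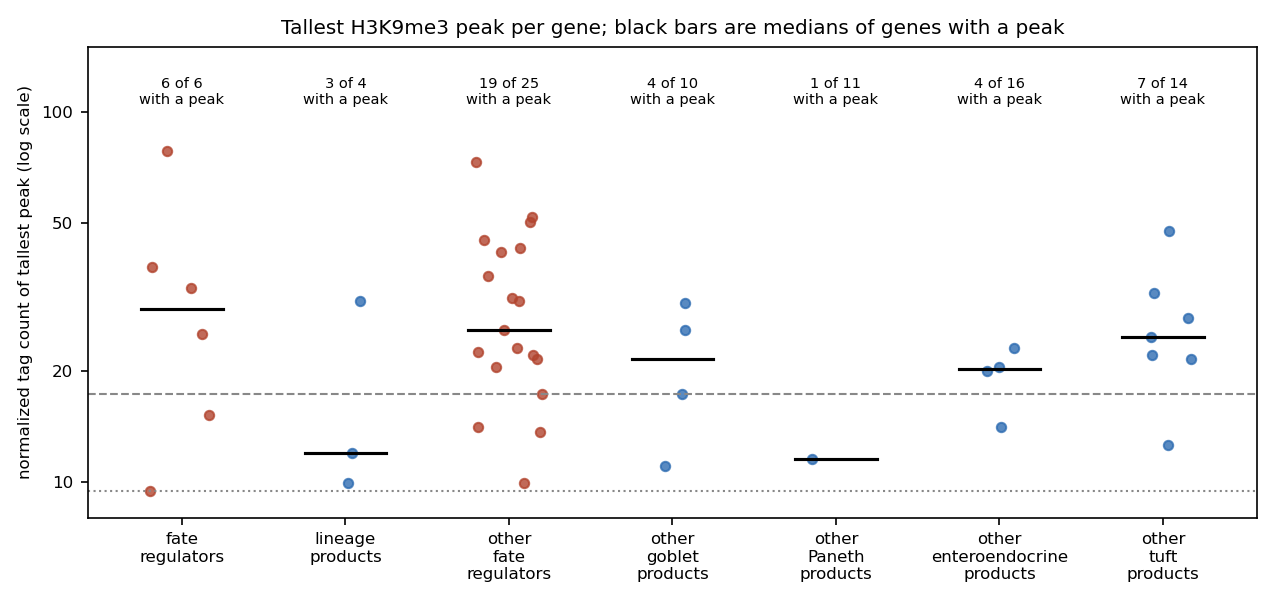
Normalized tag count of the tallest peak of each marked gene (y axis, log scale) in the member groups and in the wider lists, with the number of marked genes above each column. Black bars are medians of marked genes, the dashed line is the median of all peaks (17.3) and the dotted line the lowest (9.43); the regulators hold the highest points, Gfi1 at 78.6 and Foxa1 at 73.3.

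CpG content differed between regulators and products. Median gene length was 10257 bp over all 31 regulators and 9124 bp over all 55 products, and 6575 and 37219 bp among the members. The counts were also taken within classes of length and of CpG content. Below 3 kb, 2 of 2 regulators and 2 of 12 products were marked, against 28.8% of protein-coding genes. Among genes of 3 to 10 kb, 11 of 13 regulators and 2 of 16 products were marked, against 52.9% of protein-coding genes, and among genes of 10 to 30 kb the counts were 6 of 7 and 8 of 16, against 55.7%. From 30 to 100 kb they were 3 of 5 and 5 of 9, against 62.6%, and from 100 kb on 3 of 4 and 1 of 1, against 82.9%, so in both of these classes the share of regulators was below that of all protein-coding genes. A promoter start was available for 23 regulators and 40 products, with a median of 17 and 5.5 CG dinucleotides in the window, against 13 for all. In the lowest CpG quartile lay 2 regulators, none of them marked, and 14 products, 2 of them marked. In the quartiles above it 17 of 21 regulators (81.0%) and 11 of 26 products (42.3%) were marked, against 64.9% of protein-coding genes.

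Coverage around the start was set out by distance, as a description of few genes. At 1 kb into the gene, 26.1% of the 23 regulators were covered by a peak, none of the 40 products were, and 6.51% of protein-coding genes were. The share of regulators was at its highest from 500 to 1200 bp into the gene. At 500 bp into the gene the shares were 26.1%, 10.0% and 13.3%. At 900 bp they were 26.1%, 2.50% and 7.47%, and at 2100 bp 17.4%, 7.50% and 2.79%. At the start itself they were 8.70%, 7.50% and 13.9%. A peak centre lay in the first 3 kb after the start in 10 of 23 regulators (43.5%) and 6 of 40 products (15.0%), against 21.8% of protein-coding genes, and in the 3 kb before it in 6 of 23 (26.1%) and 1 of 40 (2.50%), against 11.0%. The 6 include Foxa1, whose start used here lies inside its span, by a peak centred at -598 bp that also lies inside the span. At 23 genes a single gene moves the profile by 4.35 percentage points.

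**Figure D3:**
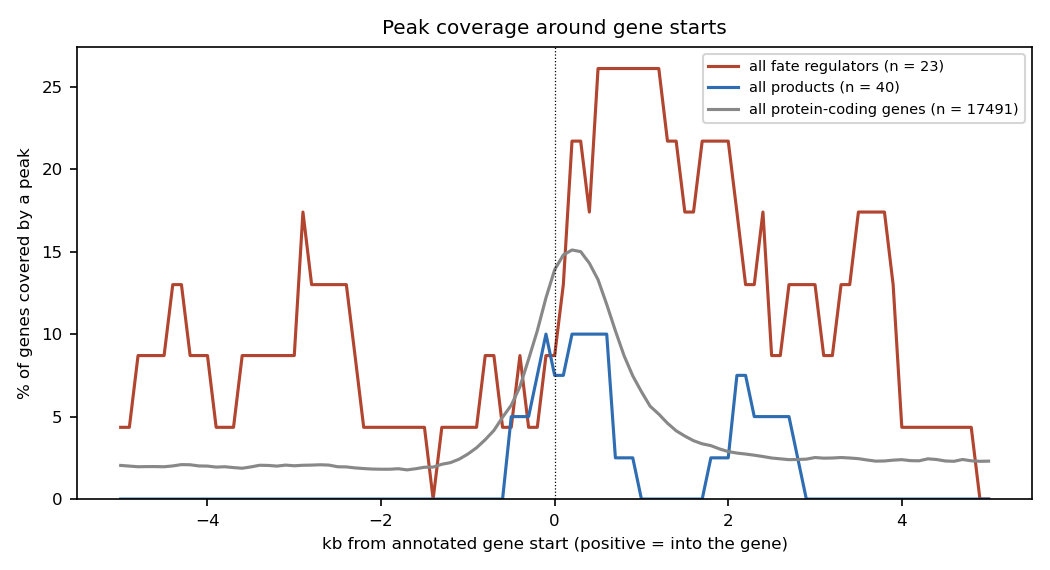
Share of genes covered by a peak (y axis, %) at each distance from the annotated start in kb (x axis, positive into the gene) for fate regulators (red, 23 genes), products (blue, 40 genes) and all protein-coding genes (grey, 17491 genes). The grey line peaks near the start, whereas the red line reaches 26.1% inside the gene and is at 8.70% at the start.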

How the data were processed

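H3K9me3 was measured by ChIP-seq in 1 library, with 1 control library seen only through its tags in the peaks. The submitters' processing notes name the builds GRCm38 and mm10, the aligner Bowtie2 (version 2.2.8) and HOMER (version 4.10.1), and per the file headers the table is output of its findPeaks program, with options that the sources used here do not give. Normalized tag counts, a coverage signal, were scaled by the authors to a common total, and the deposited control tags are also a signal. The deposited fold over control is a ratio with a lowest value of 4, the deposited score was given by the caller, and the highest deposited p-value was 8.32e-05. These per-peak values are the authors' and were used only to describe and filter peaks.

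Values under 20 normalized tags were multiples of 0.524 (100% of them within a tolerance of 0.1 step), which is 0.5 tag, and tags were recovered from this step. The control library had 0.684 of the ChIP library's tags. Poisson and Clopper-Pearson intervals are at 95% and cover counting error only. The Clopper-Pearson intervals are exact, and the Poisson formula is exact for whole tags but was also applied to tags in steps of 0.5. The Poisson intervals make no allowance for the peaks having been called by their counts. Gene spans came from RefSeq on GRCm38.p6 (49591 genes, with genes on scaffold coordinates left out) and starts from its promoter table (17491 protein-coding genes, the most upstream start each). Exons and introns were not used here. Overlaps were tested on simulated peaks. With 1 library per group no test was made. Python 3.11 and scipy 1.17.1 were used.

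The members and lists were chosen with earlier results of these data known. The genes named from each wider list were the 3 with the highest summed normalized tag count; genes named as having no peak, and Lyz2, were chosen after their values were seen. Alternatives were other flanks and overlap rules, a fold of at least 8, score or tag count at or above the list median, and control tags above the floor. A gene of the list of other cell markers is not reported here.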

Additional observations from a re-analysis of the deposited data

How the results depend on the processing

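No replicate existed, so counting error was the only error that could be given, and it was wide for peaks of about 9 to 15 tags. The folds of peaks at the control floor depend on that floor. No paired analysis was possible because the groups hold 1 library each and no test was made. Regulators marked ranged from 4 to 6 of 6 over all alternatives, and Atoh1 and Gfi1 lost their peaks at a fold of at least 8.

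With tag counts at or above the list median, 5 members and 1 product were marked, on 5 peaks in all. Of these peaks 4 were at regulators and 1 at products. Their median normalized tag counts were 33.5 for members, 35.9 for regulators and 30.9 for products. Without this filter the medians were 14.1, 15.4 and 9.95. With control tags above the lowest value, 1 product was marked, with 8 peaks at members and 1 at products, and medians of 28.0 for members and 30.9 for products. With scores at or above the list median, 1 product was marked, with 9 peaks at members and 1 at products, and 10 of the other products. With a fold of at least 8 there were 9 peaks at members and 4 at regulators. With 20 kb flanks, 27 of the other products and 24 of 25 other regulators were marked.

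The share of protein-coding genes marked was 46.6% for the gene span alone, 50.9%, 62.8% and 72.9% with flanks of 2, 10 and 20 kb, 54.9% with at least 50% of the peak or its centre inside, 47.3% at a fold of at least 8, 40.8% by score, 35.8% by tag count and 41.2% with control tags above the floor. For the gene span alone or 2 kb, Neurog3 had no peak, and Neurod1 had 1 peak in place of 2.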

Other observations

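Among the 2 peaks nearest to each gene beyond the 5 kb, the tallest was at Dclk1. It was found 42.5 kb beyond the high-coordinate end of Dclk1 (55581590 to 55586348 on chromosome 3), was 4758 bp wide and held 153 ChIP tags beside 13 control tags, a fold of 8.05. Its normalized tag count of 160.3 stood at percentile 99.2 of the list. The nearest annotated gene was the lncRNA Gm43549, 156 bp away, which another peak of 29.3 normalized tags overlapped. Dclk1 itself, next to it, had only peaks of 9.43 and 9.95.

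Local peak density varied between the genes. Within 500 kb, Spdef had 66.9 peaks per Mb and 2 peaks, Muc2 had 47.9 peaks per Mb and a single short peak on the gene, whereas Atoh1 had 8.98 and Neurod1 6.97 per Mb, below the 14.7 per Mb over all chromosomes. Lyz1, with no peak, had 23.9 per Mb around it.

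Among 13 marker genes of non-stem cells that might pass the sort, 5 had a peak, against 55.6% of protein-coding genes, and 8 and 9 did with flanks of 10 and 20 kb, against 62.8% and 72.9%. Pdgfra of mesenchymal cells had 2, of 38.8 and 16.2 normalized tags, Apoa1 of enterocytes had 2, of 34.6 and 18.3, and Pecam1 of endothelium had 3, the tallest of 17.8, and Col1a1 of mesenchyme and Sis of enterocytes were marked too. Other markers of these cell types had none, namely Acta2 of mesenchyme, Alpi and Fabp1 of enterocytes and Cdh5 and Lyve1 of endothelium, and the immune genes Ptprc, Cd3e and Cd79a had none either. A peak of a silencing mark at such genes does not measure how many of those cells were present.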
